A study of Pimephales promelas with 338 samples.

Results

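Ion channel and neurotransmitter receptor genes were followed in larvae of Pimephales promelas, the fathead minnow, a small fish used in toxicity testing, with RNA from the whole body. The genes were taken by name from the whole count table: every probe whose gene symbol begins like that of a potassium, sodium, calcium or CLC chloride channel, a ryanodine receptor, or a GABA-A, glycine, glutamate, acetylcholine, serotonin, dopamine, adrenergic or adenosine receptor. This gave 47 of 1832 probes, each for a different gene, in all 338 libraries. The rule used names only, but it was set with earlier results of these data known. Expression was counted with TempO-Seq, in which a pair of detector oligonucleotides is ligated on its transcript, amplified and sequenced, so a count reports a single short stretch of each transcript.

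Larvae were exposed for 24 h in deep-well plates to 12 chemicals, to caffeine, or to the solvent DMSO alone. The chemicals were tested as pairs in 6 exposures on 3 plates each (A, B and C), and the larvae of a treatment on a plate, 5 by design with dead larvae left out, were pooled into a library. Exposure 1 held 3,4-Dichlorophenyl isocyanate and Metolachlor OA, exposure 2 held 1(2H)-Phthalazinone and Gabapentin, and exposure 3 held 2-tert-Butyl-4-methoxyphenol and Metribuzin-DA. Exposure 4 held 4-Chlorophenyl methyl sulfoxide and Hydrochlorothiazide, exposure 5 held Cetirizine and Fipronil amide, and exposure 6 held Fexofenadine and cis-Nonachlordane. Each chemical had 8 codes, D1 to D8, along a nominal dilution series from 66.67 to 0.021 µM (32.2 to 0.011 µM for Fexofenadine and 56.43 to 0.018 µM for Fipronil amide). Which code had which concentration is not in the labels, so results are given by code. The code also equals the row of the library well in all 286 chemical libraries. Differences by code therefore cannot be told apart from differences by row. Each code had 3 libraries, apart from D1 of 2-tert-Butyl-4-methoxyphenol with 1, from plate A. The exposure plates also gave 18 caffeine and 18 DMSO libraries, and a quality-assurance (QA) set held 8 caffeine and 8 DMSO libraries. The series text gives 110 µM for 8 caffeine replicates and does not say which set they are. DMSO was also present in every chemical well, at up to 0.34%. The labels give no strain, age or sex of the larvae.

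Voltage-gated sodium channels carry the rising phase of the action potential, and potassium channels set the resting potential and end the spike. Ligand-gated channels turn transmitter release into current: AMPA, kainate and NMDA receptors for glutamate, GABA-A receptors for GABA, and nicotinic receptors for acetylcholine. Dopamine, adrenergic, adenosine and metabotropic glutamate receptors act more slowly through G proteins. Fish often keep a pair of copies of a gene that mammals have once, marked a and b at the end of the symbol.

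Depth and quality bear on all values. Totals ran from 112247 counts in cis-Nonachlordane D6 of plate B to 1029511, and levels are given as CPM, counts scaled to the library total. Among the 286 chemical libraries, Gabapentin D5 of plate C held the highest value of 222 of the 1828 genes with a count, 8 of the 47 among them, and the single 2-tert-Butyl-4-methoxyphenol D1 library that of 144. In whole-body libraries fewer cells of a type and less RNA per cell cannot be told apart. Of the 47 genes, 30 had a median of at least 10 counts per library, and 12 a median of at least 100. A minimum-count filter kept 39 of the 47 in at least 1 comparison and 29 in every one of 29 comparisons. The 8 never tested were adora2aa, drd1a, grin3a, kcnj12a, kcnk4a, scn1laa, scn4aa and scn4bb.

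Sodium channel subunits made up most of the signal with the glutamate receptors. The 11 sodium channel genes held 47.3% of the summed CPM of the 47 genes in the DMSO plate libraries, and the 15 ionotropic glutamate receptor genes held 34.0%. The summed CPM of all 47 ran from 5150 to 6780 in the 18 DMSO plate libraries. CPM of different genes also depend on how well each probe works, so the order of genes is an order of signal and not of transcript number.

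The strongest signal was that of scn8aa, the pore-forming subunit of the neuronal sodium channel Nav1.6, at 1287 ± 146 CPM (SD, n = 18 DMSO plate libraries). It ran from 1018 to 1746 CPM with a median of 1279. The accessory subunit gene scn3b followed at 803 ± 125 CPM, and no DMSO library of scn3b reached the lowest scn8aa value. The other accessory subunits scn1ba, scn4ba and scn2b stood at 231 ± 27.3, 127 ± 15.6 and 112 ± 23.2 CPM. The skeletal muscle sodium channel gene scn4ab had 73.8 ± 14.6 CPM, the second Nav1.6 gene scn8ab 39.4 ± 8.71 and scn12aa 21.7 ± 5.84, whereas scn4aa, the copy of scn4ab, had 4.65 ± 3.70 CPM and at most 8 counts in any library.

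Among the glutamate receptors, the AMPA receptor gene gria3b was highest at 390 ± 101 CPM. It was followed by grin1a, a gene for the subunit type that all NMDA receptors need, at 318 ± 49.6 CPM. The kainate receptor gene grik4 had 264 ± 47.05 CPM. These 3 ranges overlapped between libraries, and the order of the genes within a library was not tested. The copies of an AMPA receptor gene were unequal in signal: 390 ± 101 CPM for gria3b against 22.2 ± 6.79 for gria3a, and 229 ± 31.95 CPM for gria1a against 43.0 ± 12.6 for gria1b. So were those of gria4, at 197 ± 38.3 CPM for gria4b against 38.4 ± 7.95 for gria4a, while gria2b and gria2a were close at 214 ± 37.6 and 176 ± 28.8 CPM. The remaining NMDA receptor genes were low, from 34.0 ± 7.10 CPM for grin2cb to 4.03 ± 4.47 CPM for grin2da. The metabotropic receptor gene grm4, a receptor that lowers transmitter release, had 69.3 ± 12.1 CPM.

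The GABA-A delta subunit gene gabrd, whose receptors carry tonic inhibition, had 252 ± 34.3 CPM, and the alpha subunit gene gabra2a had 102 ± 17.5. The nicotinic subunit gene chrnb3a had 231 ± 43.4 CPM, ahead of chrnb2 at 92.0 ± 22.6 and chrna4b at 7.55 ± 3.43. All 3 encode neuronal subunits. Of the potassium channel genes, kcnq3, a subunit of the M-current channel, was highest at 48.8 ± 11.8 CPM. The leak channel gene kcnk1a had 34.5 ± 8.77 CPM, kcnf1b 31.98 ± 10.5, kcng1 10.8 ± 4.80 and kcnk9 8.11 ± 3.19. The only gene matched by a calcium channel name, cacng5b, named as a gamma subunit, had 16.3 ± 7.196 CPM. Among G protein-coupled receptors, the D1-type dopamine receptor gene drd1b had 63.4 ± 20.2 CPM, its copy drd1a 1.35 ± 1.61, the D2-type gene drd2a 16.5 ± 5.76, the alpha-2 adrenergic receptor gene adra2b 50.0 ± 10.3 and the beta-2 gene adrb2a 15.2 ± 5.40. The adenosine receptor gene adora2aa had 174 counts in all 338 libraries together and at most 5 in any. No CLC channel, ryanodine, glycine, muscarinic or serotonin receptor gene matched among the probes analysed here.

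**Figure D1:**
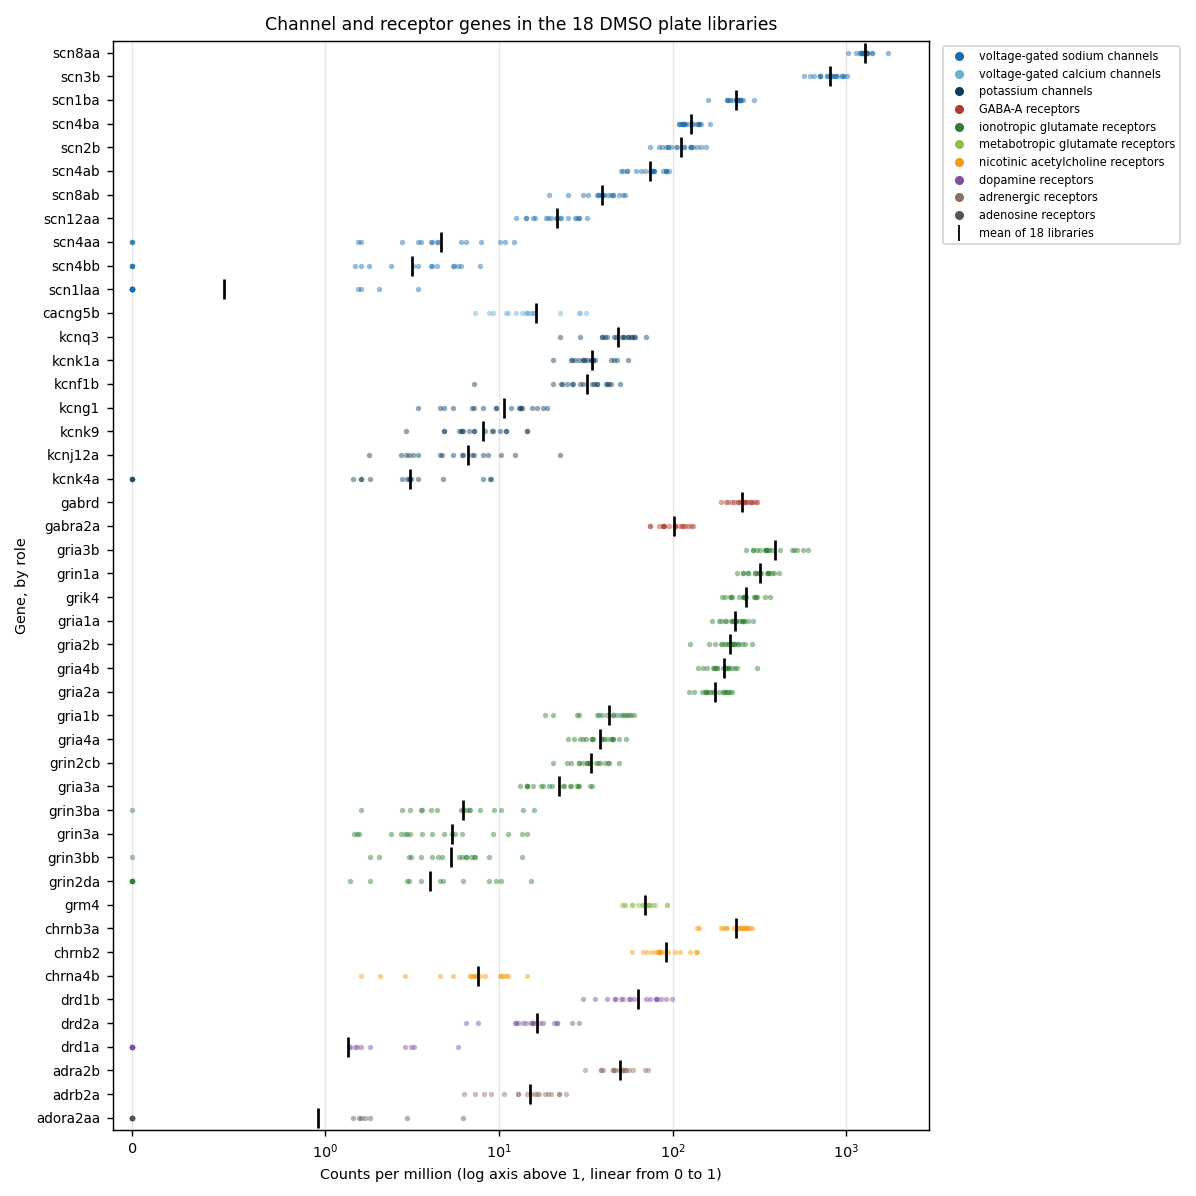
CPM (log axis above 1, linear from 0 to 1) of 46 channel and receptor genes, one row per gene by role, in the 18 DMSO plate libraries. Points are libraries and bars are means; scn8aa (mean 1287 CPM) and scn3b (803 CPM) lie above all other genes, and scn1laa and adora2aa have means below 1 CPM.

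The spread between replicates set what could be seen. Within the groups of 3 plate controls, the SD on the log2 scale was 0.127 for scn8aa, 0.133 for scn1ba and 0.157 for gabrd. It was 0.503 for cacng5b, which averaged 9.28 counts.

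With no chemical at all, the DMSO libraries of the 6 exposures differed in drd1b. The 3 DMSO libraries had 91.7, 99.3 and 81.8 CPM in exposure 5, 80.5, 70.1 and 74.2 in exposure 1, and 57.1, 85.8 and 80.5 in exposure 2. They had 46.8, 46.8 and 55.9 CPM in exposure 4, 35.9, 50.4 and 59.7 in exposure 6, and 51.7, 30.6 and 42.0 in exposure 3. The libraries of exposures 1 and 5 all lay above those of exposures 3, 4 and 6. In the edgeR quasi-likelihood test over the 6 exposures, drd1b was the only one of 33 channel and receptor genes called at an adjusted p below 0.05 (adjusted p = 0.0134), against 9.77% of all 1474 genes tested. The call was lost when plate B or plate C was left out (adjusted p = 0.417 and 0.0755). A further 6 genes had an unadjusted p below 0.05, so 7 of the 33 did, against 28.8% of all genes: grik4 (adjusted p = 0.0891), gria2a, cacng5b, gria4b, gria2b and chrnb2. The caffeine libraries of the same exposures had 90.2, 101 and 77.3 CPM of drd1b in exposure 5, and 36.5, 22.4 and 33.1 CPM in exposure 6. Of the marker and partner genes, rgs2 and slc6a9 also differed between the DMSO libraries, whereas none of the neuron, glia, muscle or retina markers was called.

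**Figure D2:**
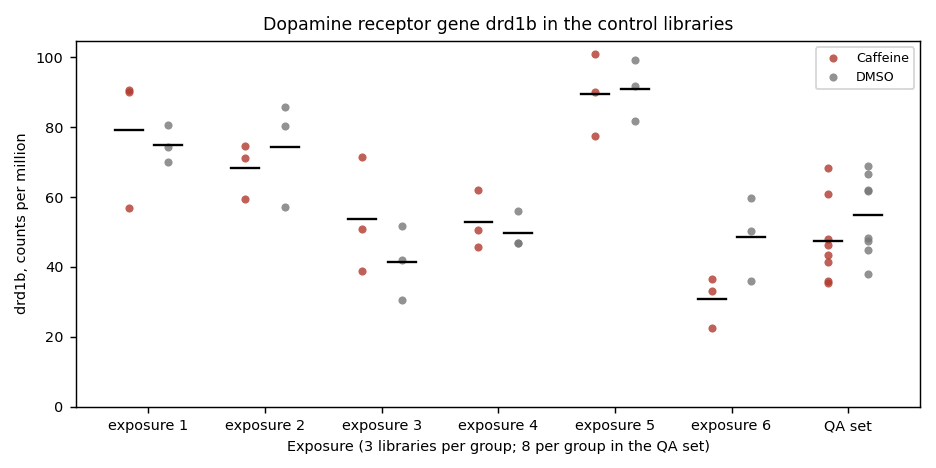
The dopamine receptor gene drd1b in CPM in each control library, with caffeine left of DMSO for the 6 exposures and the QA set; bars are group means. All 6 libraries of exposure 5 lie between 77.3 and 101 CPM, and those of exposure 6 between 22.4 and 59.7 CPM.

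Caffeine, the positive control, is known to block adenosine receptors and to open ryanodine receptors. None of the tested channel and receptor genes was called after caffeine. On the exposure plates 0 of 31 tested genes passed, against 4.26% of all 1363 genes, and 1 of the 31 had an unadjusted p below 0.05, against 16.7% of all genes. In the QA set 0 of 29 passed, against 1.28% of all 1324 genes, and 0 of 29 had an unadjusted p below 0.05, against 10.1%. DESeq2 called 0 in both sets and in both tests of a differing caffeine change. On the plates every 95% confidence interval of the 31 genes lay within ±0.5 on the log2 scale, and in the QA set 23 of 29 did and all 29 lay within ±1.

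The gene with the smallest p on the plates was scn1ba. It had 184 to 338 CPM with a median of 243 in the 18 caffeine libraries, against 160 to 293 CPM with a median of 234 in the 18 DMSO libraries. The ranges overlapped over most of their length. The log2 fold change was 0.11 ± 0.05 (SE), with an edgeR adjusted p of 0.241, and caffeine was higher in 10 of 18 plate pairs. The estimates ran from -0.21 ± 0.11 for scn4ab to 0.23 ± 0.12 for gria4a. The strongest gene, scn8aa, had a log2 fold change of 0.01 with an interval from -0.08 to 0.10. The median of the 31 was 0.06, against -0.01 for all genes. In the QA set the smallest p was that of grik4, at -0.14 ± 0.09 (adjusted p = 0.711), and the estimates ran from -0.31 for scn12aa to 0.15 for scn8ab. The median of the 29 was -0.04 there, so the medians of both sets had opposite signs.

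The adenosine receptor gene adora2aa could not be tested. It had 0 to 2.97 CPM in the 18 caffeine plate libraries, against 0 to 6.21 CPM in the 18 DMSO plate libraries, with a median of 0 in both groups. In the QA set it had 0 to 2.01 CPM with caffeine, against 0 to 2.25 CPM with DMSO, with medians of 0 and 1.81 CPM. Caffeine was higher in 4 of 18 plate pairs, and the other 14 include pairs with both libraries at 0. In exposure 2 all caffeine and DMSO libraries had 0 CPM of adora2aa. These are levels of a few counts, too few for the test. Of 33 genes tested for a caffeine change that differs between exposures, 0 were called, against 0.0% of all 1506 genes, and 0 had an unadjusted p below 0.05, against 4.25%. Of 34 tested for a caffeine change that differs between QA set and plates, 0 were called, against 0.0% of all 1508 genes, and 0 had an unadjusted p below 0.05, against 3.45%. The smallest p was that of grik4 in both (adjusted p = 0.99 and 0.997). None of the genes of the marker and partner lists was called for caffeine on the plates.

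**Figure D3:**
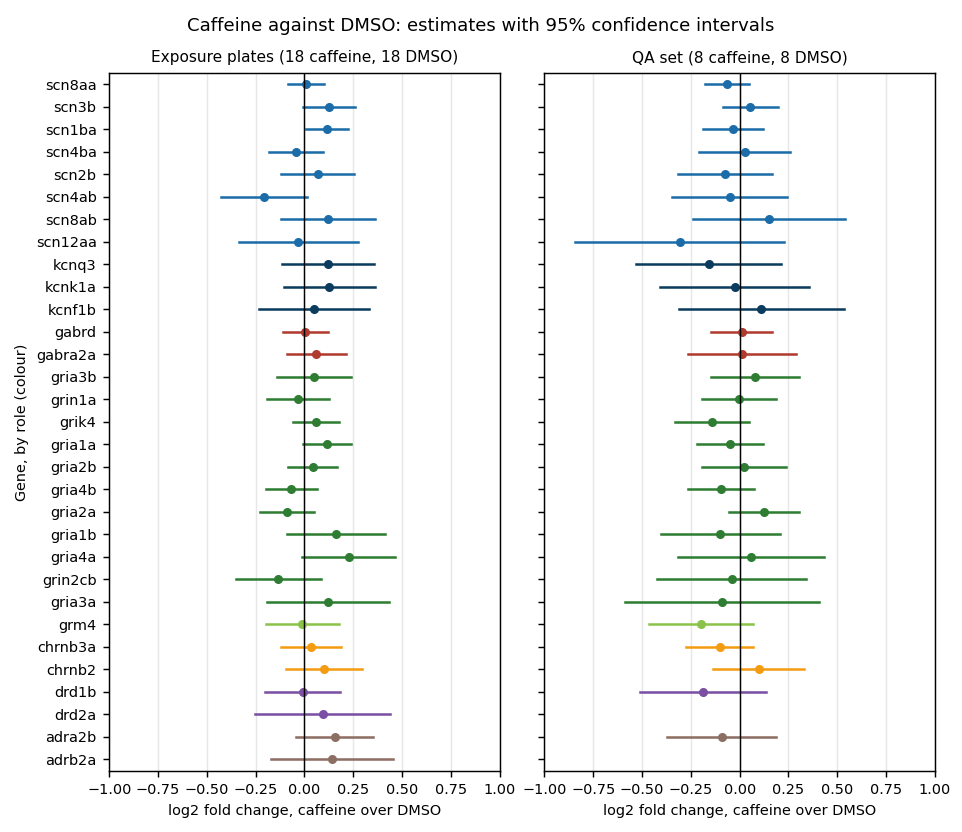
Log2 fold change of caffeine over DMSO with its 95% confidence interval for each tested gene, on the exposure plates (left, 31 genes) and in the QA set (right, 29 genes). On the plates all intervals lie within ±0.5; the interval of scn12aa in the QA set is the widest.

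Over the codes of the 12 chemicals, a slope was fitted for each gene in log2 units per code step towards D1, without the controls, and is given ± its standard error, as are log2 differences from DMSO. It was called in 8 of 416 tests of channel and receptor genes, against 3.94% of all 18228 gene tests. Comparisons of each code with the 3 DMSO libraries of its exposure gave 5 calls in 3328 tests, against 0.249% of all 145824. All of these calls were for 2-tert-Butyl-4-methoxyphenol or 3,4-Dichlorophenyl isocyanate, which also moved the most genes of the whole panel.

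**Figure D4:**
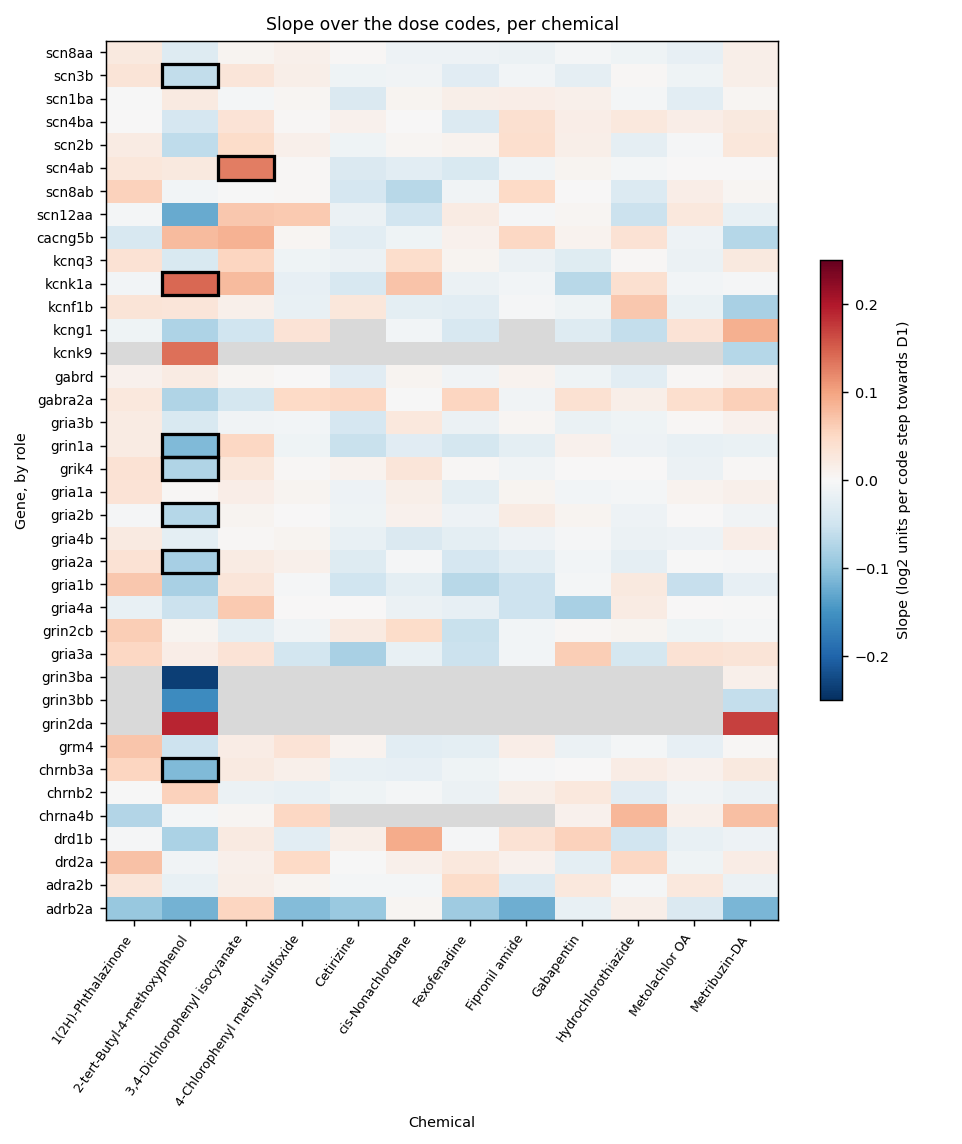
Slope of 38 tested genes (rows, by role) over the codes of each of the 12 chemicals (columns), in log2 units per step towards D1. Red is higher and blue lower towards D1, grey was not tested, and the 8 black frames mark slopes called at an adjusted p below 0.05, 7 for 2-tert-Butyl-4-methoxyphenol and 1 for 3,4-Dichlorophenyl isocyanate.

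With 2-tert-Butyl-4-methoxyphenol, a phenolic antioxidant, 4 glutamate receptor genes and 1 of 3 nicotinic acetylcholine receptor genes fell towards D1, and D1 is a single library. Of 38 genes tested, 7 had a called slope, against 27.2% of all 1589 genes. Of these, 6 fell, against 12.8% of all genes, and 1 rose, against 14.4%. Of 38, 11 had an unadjusted p below 0.05, against 37.3% of all genes. The share of called channel and receptor genes was below that of the panel as a whole. The lone D1 library set the smallest group size of the count filter, so more genes with few counts entered in exposure 3. Among the chemicals, grin2da, grin3ba, grin3bb and kcnk9 were tested only in that exposure, at medians of 2 to 4 counts per library.

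Of 14 ionotropic glutamate receptor genes tested, 4 had a called slope below 0, with the lone D1 library included: grin1a, gria2a, grik4 and gria2b. For grin1a the values were 176 CPM in the D1 library, 265, 260 and 219 CPM at D2 and 435, 412 and 327 CPM at D8, against 360, 253 and 322 CPM in DMSO. All D2 libraries and the D1 library lay below all D8 libraries, and the D8 libraries lay above or within the DMSO range. The slope of grin1a was -0.11 ± 0.02 (SE; edgeR adjusted p = 0.000594). For gria2a the values were 126 CPM at D1, 153, 141 and 132 CPM at D2 and 195, 211 and 169 CPM at D8, against 205, 197 and 202 CPM in DMSO. Every D1 and D2 library of gria2a lay below every DMSO library. Its slope was -0.08 ± 0.02 (adjusted p = 0.0016), and D2 differed from DMSO by -0.51 ± 0.14 (adjusted p = 0.0387). It was the only one of 38 genes called at D2, where 3.15% of all genes were called. That call was lost with DESeq2 (adjusted p = 0.0605), without D1 (0.139) and without plate A, B or C (0.332, 0.194 and 0.341), while the difference itself stayed between -0.55 and -0.46.

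The kainate receptor gene grik4 had 148 CPM at D1, 216, 237 and 278 at D2 and 267, 215 and 273 at D8, against 241, 192 and 219 CPM in DMSO. The D1 library lay below all others. Its slope was -0.08 ± 0.02 (adjusted p = 0.0058). The AMPA receptor gene gria2b had 116 CPM at D1, 144, 160 and 236 at D2 and 202, 192 and 198 at D8, against 199, 126 and 175 CPM in DMSO, with a slope of -0.07 ± 0.03 (adjusted p = 0.0326) whose call was lost when plate B or plate C was left out (0.0624 and 0.0666). The other 10 tested glutamate receptor genes had uncalled slopes, among them gria1a at 0.00 ± 0.03 and gria3b at -0.04 ± 0.03. Without plate B the slope of gria3b was -0.07 and was called (adjusted p = 0.0359).

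The nicotinic receptor gene chrnb3a had the smallest p of the 38. It had 109 CPM in the D1 library, 192, 298 and 220 at D2 and 254, 236 and 272 at D8, against 285, 250 and 241 CPM in DMSO. All libraries from D2 to D8 and all DMSO libraries had at least 192 CPM. The slope was -0.11 ± 0.02 (adjusted p = 0.000266), and D1 differed from DMSO by -1.31 ± 0.25 (adjusted p = 0.00043). The sodium channel subunit gene scn3b had 521 CPM at D1, against 942, 779 and 710 CPM in DMSO, a difference of -0.70 ± 0.18 (adjusted p = 0.0244, or 0.0879 without plate B). From D2 to D8 it stayed between 646 and 1070 CPM. It was the only one of 8 sodium channel genes with a called slope (-0.06 ± 0.02, adjusted p = 0.00738), while the slope of scn8aa was -0.03 ± 0.02 (adjusted p = 0.119).

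The leak potassium channel gene kcnk1a went the other way. It had 105 CPM at D1, against 44.3, 33.8 and 34.8 CPM in DMSO, and at most 50.1 CPM in any library from D2 to D8. The difference at D1 was 1.41 ± 0.37 (adjusted p = 0.0196, or 0.088 with plate B left out and 0.0899 with plate C left out), and its slope was 0.14 ± 0.04 (adjusted p = 0.00312). None of the 2 tested genes of GABA-A receptors, 2 of dopamine receptors and 2 of adrenergic receptors had a called slope. At D1, 3 of 38 genes were called in all, against 13.4% of all genes, and over all codes 4 of 304 tests were, against 2.17% of all tests.

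The called slopes were all lost without the D1 library. Without D1, 0 of 34 genes had a called slope, 3 had an unadjusted p below 0.05, and 4.69% of all 1515 genes were called. Without plate A, which holds it, 0 of 34 were called, against 3.1% of all 1515 genes. The slopes of chrnb3a, grik4 and scn3b turned to 0.017, 0.0069 and 0.019 without plate A. Without D1 the slopes of grin1a and gria2a were -0.07 (adjusted p = 0.0594) and -0.06 (adjusted p = 0.0699), while those of chrnb3a and kcnk1a were -0.0015 and 0.00083 and that of scn3b turned to 0.0020. The D1 library lay lowest among the 96 chemical groups for 16 of the 47 genes and highest for 4. It is a single library set against means of 3, and the same counts over all genes are not given here. Its summed CPM of the 47 was 4453, against 5150, 5433 and 5875 in the DMSO libraries. With the plate as a block, scn2b was also called (slope -0.07, adjusted p = 0.048), and so was grin1a at D1 (-1.01, adjusted p = 0.00439).

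Some markers of neurons moved with these genes, in slopes that include the lone D1 library. Of all genes, 12.8% had a called slope below 0 and 14.4% had one above 0. Of 8 neuron markers, eno2, gap43, map2 and snap25a fell towards D1 and none rose, with a median slope of -0.07 against -0.0049 for all genes. Their summed level was 1622 CPM in the D1 library, against 2278 to 2573 CPM in DMSO, and no neuron marker was at 0 in the D1 library. From D2 to D8 the group means of this sum ran from 2175 to 2624 CPM. Of 5 retina markers, grk1a, pde6c and rlbp1b fell, and 0 of 5 glia markers and neither the skeletal muscle marker desma nor the heart marker myl4 was called. The part of neuron or retina content in the fall of the receptor genes was not tested.

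Genes of the partner lists were measured as well, again with the lone D1 library in every slope. Of 20 genes listed for transmitter synthesis, transport and breakdown, gad1a (GABA synthesis) and slc1a2b (glutamate uptake) fell and mao (monoamine breakdown) rose. That list also holds transporter genes such as slc6a6b, slc6a14 and slc6a19b, whose part at synapses was not tested. Of 6 genes of vesicle release, snap25a, also counted among the neuron markers, and vamp1 fell. Of 3 tested scaffold and adhesion genes, the neuroligin gene nlgn3b and shank3a fell. Of 8 genes of cyclic AMP signalling, rgs2 rose and creb1b and creb5b fell. None of 4 genes listed for calcium handling (calm1a, camk2a, fkbp1aa and pln) and none of 5 other receptor genes was called.

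**Figure D5:**
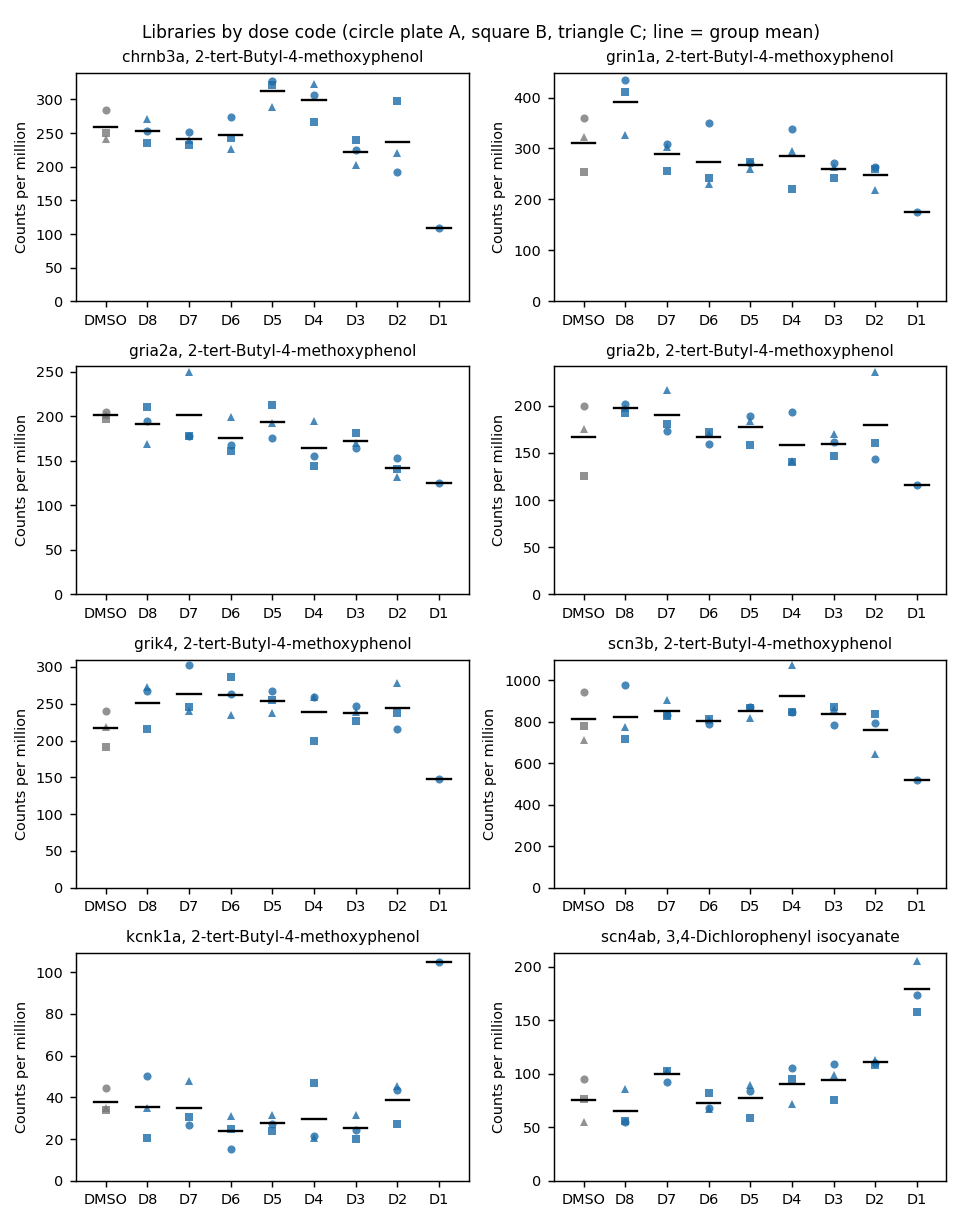
CPM in each library (circle plate A, square plate B, triangle plate C; bars are group means) for the 8 genes with a called slope, from DMSO through D8 to D1. For 2-tert-Butyl-4-methoxyphenol the D1 point is 1 library, at 109 CPM for chrnb3a and 105 CPM for kcnk1a; for scn4ab all 3 D1 libraries of 3,4-Dichlorophenyl isocyanate lie above all others.

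With 3,4-Dichlorophenyl isocyanate, scn4ab, the sodium channel gene of skeletal muscle, rose towards D1. It had 174, 158 and 206 CPM at D1, 110, 108 and 113 CPM at D2 and 55.4, 55.6 and 85.8 CPM at D8, against 94.8, 76.3 and 54.97 CPM in DMSO. All 3 libraries of D1 and of D2 lay above all 3 DMSO libraries. At D1 the log2 difference was 1.20 ± 0.22 (adjusted p = 0.000757), and the slope was 0.13 ± 0.02 (adjusted p = 7.38e-05). At D2 the difference was 0.48 ± 0.23 and was not called (adjusted p = 0.57). It was the only called slope among 35 genes, against 18.7% of all 1507 genes, or 8.03% called with a slope above 0. It was also the only call at D1, where 4.11% of all genes were called, and in the 280 tests over the codes, where 0.705% of all tests were.

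Without D1 the slope of scn4ab was 0.07 (adjusted p = 0.231), and without plate C its difference at D1 was 0.91 (adjusted p = 0.25). The D1 library of plate C held the highest value of 51 genes among the 286 chemical libraries, scn4ab and cacng5b among them. Among the other sodium channel genes, the slope of scn8aa was 0.01 ± 0.01, that of scn3b 0.03 ± 0.02 and that of scn4ba 0.03 ± 0.02, none of them called. The slope of scn12aa was 0.07 ± 0.05 (adjusted p = 0.336), or 0.16 and called without plate A (adjusted p = 0.0151), as was that of the potassium channel gene kcnq3 at 0.09 (adjusted p = 0.0155), against 0.05 with all plates (adjusted p = 0.136). The gene scn4aa, the copy of scn4ab, had too few counts to test.

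The only gene matched by the skeletal muscle marker list, the desmin gene desma, had a slope of -0.03 and was not called. Its level was 757 to 902 CPM at D1, against 837 to 1368 CPM in DMSO. Of 7 neuron markers tested, 0 were called, with a summed level of 2602 to 2656 CPM at D1, against 2416 to 2830 CPM in DMSO. Of 5 glia markers, aqp4 fell, where 161 of all 1507 genes had a called slope below 0.

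Of the 35 genes, 8 had an unadjusted p below 0.05 for the slope, against 30.3% of all genes. With the plate as a block, 24.2% of all 1507 genes were called, against 18.7% without it. Of the 35, 4 were called instead of 1. The AMPA receptor gene gria4a at 0.07 (adjusted p = 0.0421), grin1a at 0.05 (adjusted p = 0.0193) and kcnk1a at 0.08 (adjusted p = 0.0483) joined scn4ab. Without the block their adjusted p were 0.0694, 0.0889 and 0.0583. The largest uncalled difference at D1 was that of cacng5b, at 1.36 ± 0.43 (adjusted p = 0.181), a gene with few counts. Of all 1507 genes, 121 had a called slope above 0 and 161 had one below 0. Among genes of the partner lists mao, vamp1, the transporter gene slc6a6b and the vasopressin receptor gene avpr1aa rose. The genes creb5b and slc6a19b, a transporter gene, fell. The lists hold 20 genes for transmitter synthesis, transport and breakdown, 6 for vesicle release, 8 other receptors and 8 for cyclic AMP signalling.

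For the other 10 chemicals no channel or receptor gene was called by slope or at any code. Over these 10, 0 of 343 slopes were called, against 0.0264% of all 15132, and 22 had an unadjusted p below 0.05, 6.41% against 5.54% of all genes. Over their codes 0 of 2744 differences were called, against 0.00165% of all 121056, and 112 had an unadjusted p below 0.05, 4.08% against 3.79% of all genes. DESeq2 also called 0 in each of the 10. Of the 343 slopes, 236 had a 95% interval within ±0.1 per step. That bound applies to each step and not to the whole span from D8 to D1. Of the 2744 differences, 2125 had a 95% interval within ±1, and for the others the interval reached past ±1.

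Percentages of all genes called were 0.0% for the slopes of 1(2H)-Phthalazinone, 4-Chlorophenyl methyl sulfoxide, Fexofenadine, Fipronil amide, Gabapentin, Hydrochlorothiazide, Metolachlor OA and cis-Nonachlordane, 0.202% for Cetirizine and 0.0629% for Metribuzin-DA. At the codes they were 0.0085% for Fexofenadine, 0.00787% for Metribuzin-DA and 0.0% for the other 8.

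GABA-A and glycine receptors bind fipronil-type insecticides and cyclodienes such as the chlordanes, which block the chloride pore. For Fipronil amide, gabrd had 263, 252 and 253 CPM at D1 and 276, 301 and 186 CPM at D8, against 283, 258 and 291 CPM in DMSO. The slope of gabrd was 0.01 ± 0.02 and that of gabra2a -0.01 ± 0.02 (adjusted p = 0.946 and 0.961). Against DMSO the 8 code differences of gabrd ran from -0.31 to -0.10 and those of gabra2a from -0.21 to -0.01, with none called. All 16 were below 0, but the codes share the same 3 DMSO libraries. The intervals of gabrd reached from -0.61 to 0.19.

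For cis-Nonachlordane, gabrd had 270, 217 and 234 CPM at D1 and 230, 278 and 200 CPM at D8, against 283, 302 and 272 CPM in DMSO. Every D1 value lay below every DMSO value, and so did the 3 caffeine libraries of that exposure, at 216 to 233 CPM. All codes share the same 3 DMSO libraries. The slope was 0.01 ± 0.01 for gabrd and 0.00 ± 0.02 for gabra2a, and the code differences of gabrd ran from -0.29 to -0.14, none called. No glycine receptor gene matched among the probes analysed here.

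Gabapentin binds the alpha-2-delta subunit of calcium channels, which none of the 47 genes encodes. The gene cacng5b, a calcium channel gene by name only, had 15.4, 8.15 and 11.6 CPM at D1 and 15.4, 13.1 and 8.75 CPM at D8, against 29.3, 15.3 and 31.9 CPM in DMSO. Its 8 differences from DMSO ran from -1.10 to -0.68, none called, and its slope was 0.01 ± 0.05. All 8 share the same 3 DMSO libraries. Their mean of 25.5 CPM was the highest among the DMSO groups of the 6 exposures, the others having 11.1 to 21.6 CPM. The same DMSO libraries gave the smallest p of 1(2H)-Phthalazinone, cacng5b at D3 with -1.50 ± 0.42 (adjusted p = 1.00). The caffeine libraries of that exposure had 16.3, 13.5 and 24.4 CPM of cacng5b.

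By slope, the genes with the smallest p among the uncalled chemicals were gabra2a for 3 of them: Metribuzin-DA (0.06 ± 0.02, adjusted p = 0.493), 4-Chlorophenyl methyl sulfoxide (0.05 ± 0.02) and Metolachlor OA (0.04 ± 0.02). For Metribuzin-DA gabra2a had 138, 139 and 101 CPM at D1 and 111, 68.3 and 84.5 CPM at D8, against 88.6, 74.1 and 88.4 CPM in DMSO. For cis-Nonachlordane it was drd1b (0.09 ± 0.03), with 100, 64.6 and 98.3 CPM at D1 and 44.3, 68.9 and 38.9 CPM at D8, against 35.9, 50.4 and 59.7 CPM in DMSO. All 3 D1 libraries of drd1b lay above all DMSO libraries, and the adjusted p was 0.63. The others were grm4 for 1(2H)-Phthalazinone (0.07), scn1ba for Cetirizine (-0.04), gria1b for Fexofenadine (-0.07), scn4ba for Fipronil amide (0.04), gria4a for Gabapentin (-0.08) and kcnf1b for Hydrochlorothiazide (0.07), with adjusted p from 0.396 to 0.993.

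By code, the smallest unadjusted p were those of chrnb2 for 4-Chlorophenyl methyl sulfoxide at D6 (0.65 ± 0.18) and for Hydrochlorothiazide at D8 (0.58 ± 0.18), comparisons that share their DMSO libraries. For the antihistamines they were gabrd for Fexofenadine at D3 (-0.44 ± 0.13) and scn4ba for Cetirizine at D3 (-0.48 ± 0.16). The rest were scn2b for Gabapentin at D5 (0.58 ± 0.18), kcnq3 for Fipronil amide at D8 (0.68 ± 0.24), gria1b for Metolachlor OA at D6 (0.74 ± 0.30), gabra2a for Metribuzin-DA at D4 (0.57 ± 0.20) and drd1b for cis-Nonachlordane at D1 (0.82 ± 0.25). Their adjusted p were 0.769 or more. The value of scn2b came from 1 library: Gabapentin D5 had 148, 140 and 312 CPM on plates A, B and C, against 138, 132 and 117 CPM in DMSO, and without plate C's library the difference was 0.22.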

How the data were processed

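The authors deposited raw counts per probe for whole-body homogenates, whole numbers with no normalization, per the file headers and values. The submitters' processing notes name bcl2fastq; an aligner and a build were not given in the sources used here. Groups come from the treatment labels and sample descriptions; 26 titles name DMSO where the treatment label says caffeine, and the label was followed. The sulfoxide is called a sulfone in the series text.

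All 338 columns were matched, with 0 left over. edgeR 4.0.16 (R 4.3.3) quasi-likelihood tests with TMM normalization, a minimum count of 10 (filterByExpr) and Benjamini-Hochberg adjustment at 0.05 were fitted to the whole table, and codes were adjusted together per chemical. Code differences and slopes come from a mean per group over all libraries of an exposure. The lone D1 library of 2-tert-Butyl-4-methoxyphenol was assumed to vary like the other groups. DESeq2 1.42.0, RLE scaling, no filter, a replicate block and left-out libraries were alternatives. The tests were also run on simulated data, but the outcome is not given here and no assurance is drawn from it. Plate letters were read as marking pools from the same plate. The mean correlation of residuals between groups was 0.0404 to 0.15 on the same plate and -0.0748 to -0.0202 otherwise. Residuals were taken from group means, so the negative values follow from the positive ones and add no evidence. These values cannot tell what the letters mark.

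Members, lists and tests were chosen with earlier results of these data known. Called genes, the smallest p of each comparison, the highest gene per role and target families were named by rule. The list of ion pumps matched 0 probes. Whether QA libraries came from separate exposures is not stated, so their p-values may measure technical spread. Counting error follows from counts; reads carry no stated molecular identifiers. RefSeq (fPimPro1.hap1.1) symbols matched 46 of the 47 names and were used for names only. A gene that entered the counts is not reported by name here. Gene copies a and b, and overlapping genes, may share reads.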

Additional observations from a re-analysis of the deposited data

Results flagged for a closer look

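Of 58 groups of 8 QA libraries tested for a library far from the others (29 genes, 2 treatments), 1 stood out, where chance flags about 1 in 20. The AMPA receptor gene gria4a had 60.4 CPM in DMSO QA library 4 (library plate P2), against 45.2 CPM in the next highest and 33.7 CPM in the lowest DMSO library. The caffeine QA libraries of gria4a ran from 24.0 to 69.2 CPM. The caffeine change of gria4a in the QA set was 0.06 ± 0.18, with an adjusted p of 0.946, and the exposure plates gave 0.23 ± 0.12.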

How the results depend on the processing

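Counts of called channel and receptor genes for caffeine on plates, in the QA set and in both interaction tests were 0 under every alternative run. Of all genes, these alternatives called 0.603% to 5.8% on plates, 0.608% to 3.63% in the QA set and 0.0% in the interactions. Of 2744 single-code intervals, 2125 lay within ±1, which limits what 3 libraries a code can show. Called slopes over 12 chemicals numbered 8, or 8 with DESeq2, 8 with RLE scaling, 9 without a filter and 12 with the replicate block. They numbered 3 to 8 with a plate left out, and 0 without D1. For 2-tert-Butyl-4-methoxyphenol, 27.2% of all genes had called slopes, or 30.7% with the block, 3.1% without plate A and 4.69% without D1. For 3,4-Dichlorophenyl isocyanate these shares were 18.7%, 24.2%, 15.8% and 3.19%, in the same order. Called code differences numbered 5, or 4 with DESeq2, 6 with the replicate block, 1 to 2 with a plate left out, and 0 without D1. Of all code tests of 2-tert-Butyl-4-methoxyphenol, 2.17% were called, or 2.6% with the block, 0.207% without plate A and 0.33% without D1. For 3,4-Dichlorophenyl isocyanate these shares were 0.705%, 1.3%, 0.561% and 0.142%. The DMSO difference between exposures was called in 1 gene, or 0 to 1 with a plate left out. Of all genes it was called in 9.77%, or 6.96%, 0.878% and 5.86% without plate A, B or C. Leaving out cis-Nonachlordane D6 of plate B or, chosen after seeing the data, Gabapentin D5 of plate C gave 8 slopes and 5 differences each. With a plate left out, 2-tert-Butyl-4-methoxyphenol slopes ran from -0.13 to 0.017 for chrnb3a, from -0.082 to 0.0069 for grik4 and from -0.074 to 0.019 for scn3b, above 0 without plate A, which holds the lone D1 library; without D1 that of scn3b was 0.0020. These alternatives hold fewer samples by construction. No replicate block was fitted for DMSO between exposures or the interactions. Of single-gene values, 24 lost their call and 4 turned. The replicate block changed no other call than those given for scn2b, grin1a, gria4a and kcnk1a.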

Other observations

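The GABA-A receptor gene gabra2a had a slope above 0 with an unadjusted p below 0.05 in 5 of 12 chemicals (Metribuzin-DA, 4-Chlorophenyl methyl sulfoxide, Cetirizine, Fexofenadine and Metolachlor OA), and a slope below 0 at that level in 2 (2-tert-Butyl-4-methoxyphenol and 3,4-Dichlorophenyl isocyanate). It was chosen after its values were seen. Of 1450 genes tested in all 12 chemicals, 7 had at least 5 such slopes above 0, and gabra2a was the only 1 of 32 channel and receptor genes among them. None of its slopes was called. In all 286 chemical libraries the code equals the row of the library well, so code and row cannot be told apart. For Cetirizine gabra2a had 100, 104 and 154 CPM at D1 and 89.3, 90.7 and 95.0 CPM at D8.

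The AMPA receptor gene gria3b, also chosen after its values were seen, was highest on plate C among the DMSO libraries of 5 of 6 exposures. In exposures 4 to 6 its DMSO libraries had 520, 600 and 563 CPM on plate C. On plates A and B they had 291 to 375 CPM. The caffeine libraries had 423, 580 and 596 CPM on plate C, against 275 to 486 CPM on plates A and B. The 423 CPM of exposure 4 lay within that pooled range of plates A and B. How many of all genes were highest on plate C in this way is not given here.

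The Gabapentin D5 library of plate C had 754 CPM of grin1a and 401 CPM of gria2a, against 385 and 240 CPM of grin1a and 134 and 184 CPM of gria2a in the other D5 libraries. Of the 8 neuron markers, gap43 was at 64.1 CPM in it, against 468 and 512 CPM in the other D5 libraries, and eno2, nefla and snap25a were also lowest in it. The other 4 (map2, neflb, nefma and nefmb) were highest in it, map2 at 394 CPM against 317 and 262 CPM.

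The beta-2 adrenergic receptor gene adrb2a, also chosen after its values were seen, had slopes below 0 in 9 of 12 chemicals, none called. Its median slope was -0.09 per step, at a median of 9 counts per library. The genes chrnb2, gria1b, gria2a and grin1a also had slopes below 0 in 9 of 12 chemicals. The same count over all genes is not given here.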
